A study of Mus musculus with 10 samples.

Results

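The genes described here encode the contractile apparatus of the heart muscle cell and the proteins that move calcium in and out of its cytosol, 47 genes of the 46983 in the count table. They were chosen by their known function, with results of the diet comparison in these mice already known, so the values of the diet comparison are given for them as a description and without a test. The 47 genes fall into 8 groups: thick filament, titin and M-band, thin filament, Z-disc and cytoskeleton, calcium handling, energy and oxygen supply, natriuretic peptides, and stretch response and protein turnover.

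RNA was sequenced from cardiac endothelial cells of 10 male C57BL/6J mice, 5 fed a control diet with 11.6% of its energy as fat and 5 fed a ketogenic diet with 89.5% of its energy as fat. The mice were 8 weeks old when the 14 days of feeding began, carried no transgene or deletion named in the labels, and each gave 1 library. Cells were taken from the digested heart with magnetic beads carrying an antibody to CD31, a surface protein of endothelial cells and, at lower levels, of platelets and some leukocytes. The 47 genes are therefore mainly those of a cell type that the selection was meant to leave behind. In such a bulk sample, fewer cells of a type and less RNA per cell cannot be told apart.

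The sarcomere is the repeating unit of striated muscle. Myosin heads of the thick filament pull on actin of the thin filament when calcium binds the troponin complex, titin spans from the Z-disc to the M-band as a spring, and the Z-disc anchors the thin filaments of neighboring sarcomeres. In the cardiomyocyte, calcium enters through the L-type channel, releases more calcium from the sarcoplasmic reticulum through the ryanodine receptor, and is pumped back by SERCA2a under the control of phospholamban. Endothelial cells have no sarcomeres, but several of these genes, among them Tpm1, Atp2a2, Des, Cryab, Cacna1c and Slc8a1, are also used by smooth muscle cells or other cell types.

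The libraries held between 10885154 and 12710861 counted reads, and endothelial genes were abundant in them. On the deposited RPKM scale, which divides counts by gene length and library size, Cdh5, the endothelial cadherin, averaged 162 ± 6.23 (SD, n = 5) in control and 159 ± 6.54 in ketogenic mice. All 15 endothelial markers passed the filter on low counts. Their summed level was 7081 ± 142 CPM, the count relative to the library size, in control and 6998 ± 262 CPM in ketogenic mice (exact permutation test, two-sided, p = 0.54, n = 5 per diet). Smooth muscle and pericyte genes were also well represented, with Myh11, the smooth muscle myosin, at 126 ± 6.40 RPKM, Rgs5, a pericyte gene, at 143 ± 5.09 RPKM and Acta2, smooth muscle actin, at 137 ± 5.18 RPKM in control mice. The 15 endothelial markers ran from 23.8 RPKM for Erg to 163 RPKM for Aqp1. Pecam1, which encodes CD31, was at 59.6 and Kdr at 59.3. On this scale these mural genes, Myh11, Rgs5 and Acta2, stood above all endothelial markers but Cdh5, Cldn5 and Aqp1. Both endothelial and mural cells are thus represented by their markers. No gene of at least 200 bases in the table held more than 2.10 reads per base, Cdh5 reached 1.90 and Pecam1 0.688, and 13 of the 15 endothelial markers exceeded 0.5. Near such a ceiling counts can hardly differ between mice, so the p above does not show that the endothelial share was the same. Myh11 at up to 1.59, Acta2 at up to 1.62 and Rgs5 at up to 1.65 reads per base also stood near it. The RPKM order of mural and endothelial genes rests on counts under this ceiling and on the gene lengths used. It does not rank their amounts of RNA.

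The sequence upstream of 4 of the genes is shown because these genes mark the ends of the diet differences described below: Acta1 and Ttn had the largest log2 differences in favor of the ketogenic diet, Ankrd1 is a stretch-responsive gene with no overlap between the diets, and Myl7 lay lowest. Each line gives the 250 bases before the RefSeq gene start on the coding strand, 5′ to 3′, from the GRCm38.p6 table, with matches to 5 short motifs in capitals. Acta1 is at chr8:123894776-123895025 on the minus strand, Ttn at chr2:76982548-76982797 on the minus strand, Ankrd1 at chr19:36119845-36120094 on the minus strand and Myl7 at chr11:5898783-5899032 on the minus strand.
Acta1: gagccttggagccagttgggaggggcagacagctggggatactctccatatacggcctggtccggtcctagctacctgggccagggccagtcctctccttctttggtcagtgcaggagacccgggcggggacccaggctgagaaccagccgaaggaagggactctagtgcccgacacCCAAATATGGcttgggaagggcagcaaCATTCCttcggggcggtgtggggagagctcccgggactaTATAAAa
Ttn: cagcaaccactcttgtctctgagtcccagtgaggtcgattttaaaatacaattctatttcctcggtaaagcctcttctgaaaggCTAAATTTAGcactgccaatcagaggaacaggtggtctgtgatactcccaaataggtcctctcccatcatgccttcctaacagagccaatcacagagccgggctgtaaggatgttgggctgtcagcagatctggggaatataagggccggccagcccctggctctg
Ankrd1: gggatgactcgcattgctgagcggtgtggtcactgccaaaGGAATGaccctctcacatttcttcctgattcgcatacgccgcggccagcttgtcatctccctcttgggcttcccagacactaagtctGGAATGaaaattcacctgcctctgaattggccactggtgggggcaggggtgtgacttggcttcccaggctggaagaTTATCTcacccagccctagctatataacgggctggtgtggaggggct
Myl7: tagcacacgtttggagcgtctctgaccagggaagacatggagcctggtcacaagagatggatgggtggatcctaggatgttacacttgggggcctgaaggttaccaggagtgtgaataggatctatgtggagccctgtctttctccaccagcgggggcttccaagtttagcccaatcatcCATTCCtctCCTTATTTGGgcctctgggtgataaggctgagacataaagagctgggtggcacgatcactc
In the Acta1 line the capitals mark a CArG box, the binding sequence of serum response factor, then CATTCC, the M-CAT core bound by TEAD factors, then TATAAA. In the Ttn line they mark a MEF2 site. In the Ankrd1 line they mark CATTCC on the other strand at 2 places and then AGATAA, recognized by GATA-family factors, also on the other strand. In the Myl7 line they mark CATTCC followed by a CArG box.

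Among the 40 of the 47 genes found in the promoter table, the same motifs were counted on both strands in windows of 250 bases before to 50 bases after the gene start, and overlapping matches to different motifs each counted. The CArG box was present in 7 of 40 (17.5%) and in 1.81% of the windows of all 27025 genes. The MEF2 site was present in 5 of 40 (12.5%) against 2.16% of all genes, AGATAA in 10 (25%) against 12.7%, CATTCC in 13 (32.5%) against 16.6%, and TATAAA in 8 (20%) against 15.7%. The genes with a CArG box were Acta1, Actc1, Ldb3, Myl3, Myl7, Myom1 and Nebl, and those with a MEF2 site were Casq2, Mybpc3, Myoz2, Ttn and Xirp2, so no gene held both. A match describes letters in the window and says nothing of binding.

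Transcripts of the 47 genes were a small share of these libraries. The 47 genes together took 0.237% to 0.251% of the counted reads in control mice and 0.254% to 0.309% in ketogenic mice, with means of 0.243 ± 0.00569% and 0.282 ± 0.0209% (SD, n = 5), and the ketogenic mice all lay above the control mice. Levels per length, as RPKM, spanned a wide range. Cryab, a small heat shock protein of the Z-disc, was highest at 96.3 ± 4.05 RPKM in control mice, followed by Casq2, the calcium buffer of the sarcoplasmic reticulum, at 65.5 ± 2.67, Actc1, cardiac actin, at 59.0 ± 7.31, Pln, phospholamban, at 55.1 ± 2.78, and Mb, myoglobin, at 48.8 ± 5.23. The levels of Actc1 and Pln differed by less than their spread. In all, 12 of the 47 genes reached 20 RPKM on the control diet and 9 lay under 1 RPKM.

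In cardiomyocytes the sarcomere genes are among the most abundant transcripts. Here Myh6, the main myosin heavy chain of the adult mouse heart, was at 6.03 ± 2.14 RPKM in control mice, below Cryab, Casq2, Pln and the desmin gene Des at 25.9 ± 2.23. Ttn, the longest gene of the set, was at 0.386 ± 0.113 and Ryr2, the ryanodine receptor, at 0.276 ± 0.113. The gene length used by the authors differed by more than 1.5 times from the exon length in GENCODE M21 for 17 of the 47 genes, so levels of such genes, Tpm1 and Slc8a1 among them, depend on the annotation. For Tpm1 the length behind the RPKM was 18297 bases against 6485 exon bases, and for Slc8a1 it was 2934 against 18807.

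**Figure D1:**
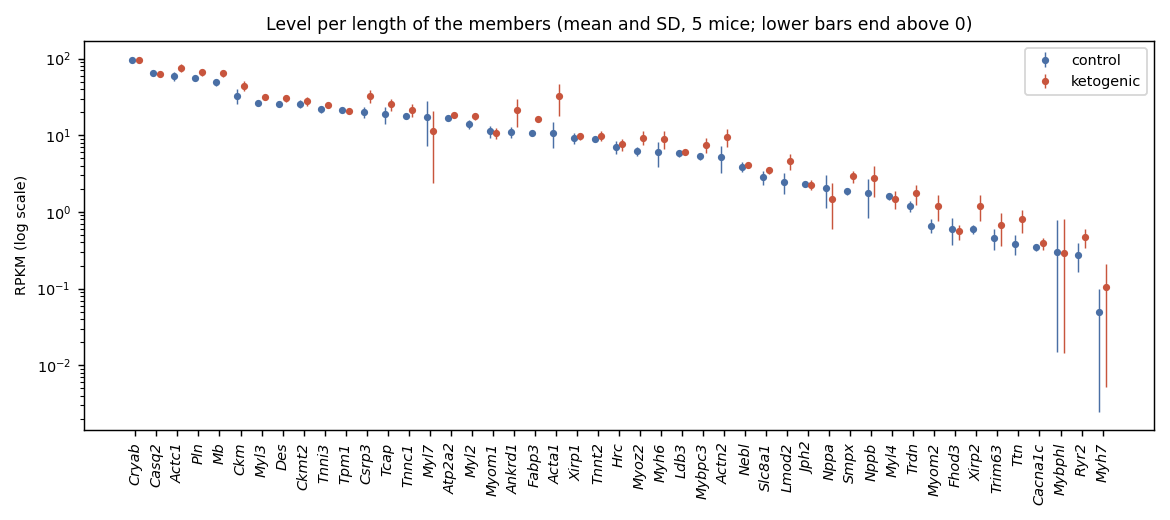
Level of each of the 47 genes per length, as deposited RPKM on a log axis, with points for the mean of 5 control mice (blue) and 5 ketogenic mice (red) and bars for the SD. Cryab stands highest at 96.3 RPKM on the control diet and Myh7 lowest at 0.0491 RPKM.

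Of the 47 genes, 45 passed the filter on low counts and entered the fit across 15949 genes. Myh7, the fetal and slow myosin heavy chain, had 1 to 35 reads per mouse and Mybphl, an atrial myosin-binding protein, had 0 to 17, and neither was tested. The log2 difference, ketogenic over control, was above 0 for 36 of the 45 genes and below 0 for 9, with a median of 0.29, while over all tested genes 48.6% were above 0, the median was -0.01 and the quartiles were -0.12 and 0.11. Of the 45 genes, 30 lay above that upper quartile. With edgeR's quasi-likelihood test at an adjusted p of 0.05, 3 of the 45 were called, Acta1, Csrp3 and Fabp3, all higher on the ketogenic diet, against 1.34% of all tested genes, and nothing is read from that count because the genes were chosen with this contrast known. In 7 genes every ketogenic mouse lay above every control mouse, against 2.40% of all tested genes, and in none did every ketogenic mouse lie below every control mouse, against 1.94%. The 7 were Acta1, Xirp2, Pln, Mb, Fabp3, Ankrd1 and Smpx. The number called depended on single mice, with 1 call without control mouse 1, 2 or 4 or ketogenic mouse 3 or 4. It was 6 without ketogenic mouse 2 and 8 without ketogenic mouse 1. The number over all tested genes moved as well when 1 mouse was left out. DESeq2 called 16 of the 45, against 5.11% of all tested genes, and nothing is read from that count either.

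**Figure D2:**
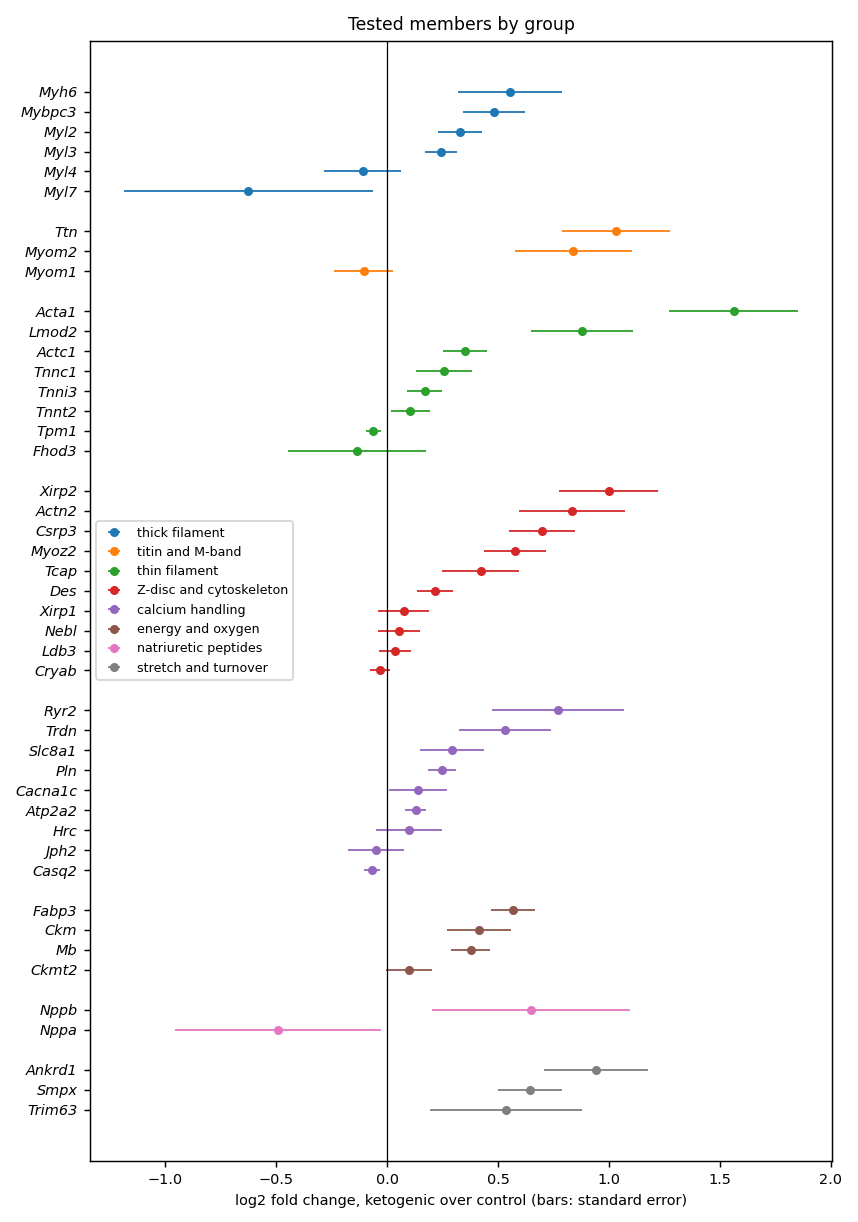
Log2 fold change, ketogenic over control, of the 45 tested genes by group, with the standard error as a bar and 0 as a vertical line. Acta1 lies farthest to the right at 1.56 and Myl7 farthest to the left at -0.63.

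Thick filament genes include the myosin chains of both heart chambers. Of the 6 tested, 4 were above 0 and the group median was 0.29 on the log2 scale. The normalized read count of Myh6 was 347.8, 370.9, 749.4, 666.4 and 433.5 in control mice 1 to 5 and 537.7, 697.3, 1033, 865.9 and 636.0 in ketogenic mice 1 to 5. Control mice 3 and 4 lay among the ketogenic mice, so the diets overlapped, and the log2 difference was 0.55 ± 0.23 (SE). About 20.2% of the 50-base windows of Myh6 transcripts also occur in Myh7, its neighbor on chromosome 14, so reads of this pair could be split between them. The regulatory light chain of the ventricle, Myl2, differed by 0.33 ± 0.10 and the essential light chain Myl3 by 0.24 ± 0.07. Myosin-binding protein C, Mybpc3, ran from 280.0 to 358.2 in control and from 305.9 to 566.5 in ketogenic mice, with a log2 difference of 0.48 ± 0.14.

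The atrial light chains had log2 differences below 0, neither of them resolved from 0. Myl7, the atrial regulatory light chain, had normalized read counts of 143.6, 33.37, 209.1, 156.9 and 63.36 in control mice and 38.48, 167.3, 121.7, 42.76 and 23.69 in ketogenic mice. Its values spread widely within each diet and overlapped fully, and the log2 difference was -0.63 ± 0.56. Myl4, the atrial essential light chain, lay between 101.4 and 128.5 in control and between 69.97 and 148.5 in ketogenic mice, a log2 difference of -0.11 ± 0.17 that changed sign in some alternatives. Whether atrial and ventricular genes differed was not tested. Mybphl was listed at 0 in control mice 1 and 4 and ketogenic mice 3 and 4, and was highest in ketogenic mouse 2 at 17.77 and control mouse 3 at 16.56.

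The giant spring protein and the M-band that ties the thick filaments together gave a wide range. Ttn, titin, had normalized read counts of 432.0, 442.4, 654.2, 862.2 and 695.0 in control mice and 812.0, 1212, 1563, 1803 and 919.4 in ketogenic mice. Only ketogenic mouse 1 fell within the control range, below control mouse 4, and the log2 difference was 1.03 ± 0.24, a ratio of 2.05. Myom2, the M-protein, lay between 55.90 and 98.57 in control mice, and 4 of the 5 ketogenic mice lay above that range at 126.3 to 196.8, while ketogenic mouse 1 was at 66.11. Myom1, myomesin, stood at 864 ± 151 in control and 803 ± 130 in ketogenic mice (SD, n = 5), with a log2 difference of -0.11 ± 0.13.

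Thin filament genes carried the largest single difference. Acta1, the skeletal muscle actin that is co-expressed in the heart at low levels after birth and increases under load, had normalized read counts of 148.0, 154.5, 269.1, 105.3 and 223.3 in control mice and 408.5, 384.7, 476.2, 945.6 and 446.5 in ketogenic mice. The diets did not overlap, with ketogenic mouse 4 far above the others, and the log2 difference was 1.56 ± 0.29, a ratio of 2.96. Leaving out 1 mouse at a time moved this difference between 1.25 and 1.75. Its upstream sequence, shown above, holds the CArG box and CATTCC, and 2.02% of its 50-base windows also occur in the gene model Gm47692.

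Actc1, the actin that dominates in the adult heart, had normalized read counts of 1071 to 1455 in control and 1300.0 to 1800.0 in ketogenic mice, and its log2 difference of 0.35 ± 0.10 was smaller than that of Acta1. Lmod2, leiomodin, which elongates thin filaments, ran from 36.72 to 75.80 in control and from 69.07 to 124.7 in ketogenic mice, and only ketogenic mouse 1 fell within the control range. The troponin subunits differed less. The log2 difference was 0.26 ± 0.13 for Tnnc1, which binds calcium, 0.17 ± 0.08 for the inhibitory subunit gene Tnni3 and 0.10 ± 0.09 for Tnnt2, which binds tropomyosin. Tpm1, tropomyosin, and the formin gene Fhod3 were below 0, at -0.06 ± 0.03 and -0.14 ± 0.31. Unscaled, Tpm1 held 4387 to 4701 reads in control and 4418 to 4655 in ketogenic mice, so its direction depended on the scaling to library size.

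**Figure D3:**
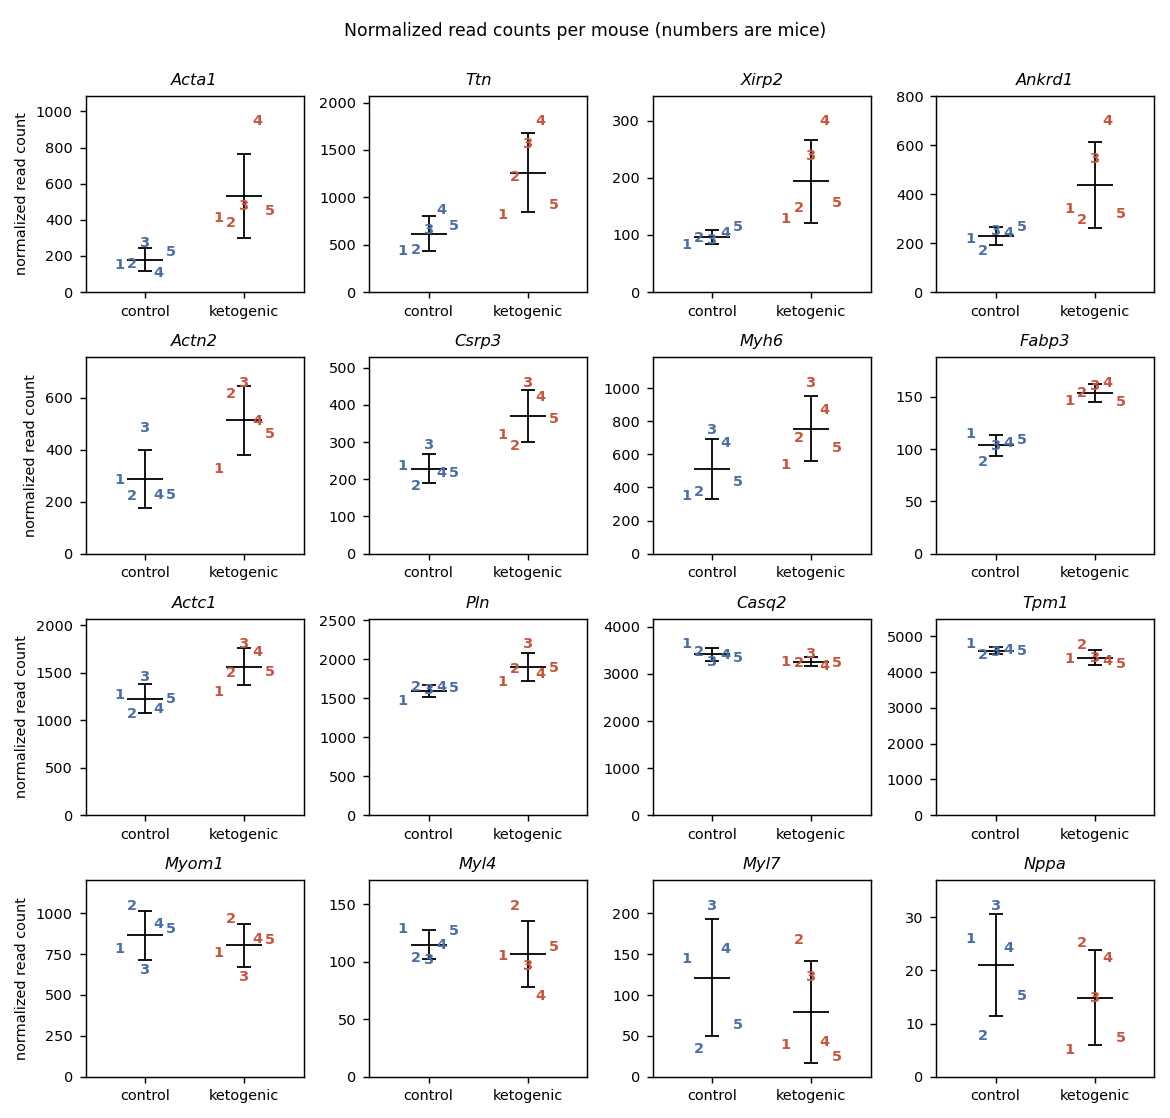
Normalized read count of 16 of the genes in each mouse on a linear axis from 0, with the number of each mouse as its symbol (blue control, red ketogenic) and black bars for the mean ± SD of 5 mice. The diets do not overlap for Acta1, Xirp2, Ankrd1, Fabp3 and Pln, and they overlap for Casq2, Tpm1, Myom1, Myl4, Myl7 and Nppa.

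Z-disc and cytoskeleton genes were above 0 in 9 of 10 cases, with a median log2 difference of 0.32. Xirp2, an actin-binding protein of the Z-disc and intercalated disc, had normalized read counts of 82.08, 95.34, 91.09, 103.2 and 113.7 in control mice and 128.3, 147.4, 238.6, 299.3 and 156.7 in ketogenic mice. The diets did not overlap, and the log2 difference was 1.0 ± 0.22. Csrp3, the muscle LIM protein, had values of 234.4, 183.1, 290.9, 216.9 and 217.2 against 318.7, 290.6, 459.5, 421.8 and 361.7. Control mouse 3 and ketogenic mouse 2 were nearly equal, the only contact between the diets, and the log2 difference was 0.70 ± 0.15.

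Actn2, the alpha-actinin that crosslinks actin in the Z-disc, had normalized read counts of 281.9, 222.1, 483.4, 226.3 and 225.3 in control mice and 324.6, 614.7, 656.8, 508.3 and 458.3 in ketogenic mice. Control mouse 3 alone lay within the ketogenic range. The log2 difference was 0.83 ± 0.24, and it was 0.58 ± 0.14 for Myoz2, which binds alpha-actinin, and 0.42 ± 0.17 for the titin cap gene Tcap. Des, the intermediate filament desmin, differed by 0.22 ± 0.08. Xirp1, Nebl and Ldb3 lay between 0.03 and 0.07 and Cryab at -0.03 ± 0.04, all with a standard error larger than the difference.

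Among the 9 calcium handling genes, 7 were above 0, and the median log2 difference was 0.14. The difference was 0.77 ± 0.30 for the release channel gene Ryr2 and 0.53 ± 0.21 for Trdn, triadin, which anchors calsequestrin to that channel. Ryr2 had normalized read counts of 37.80, 23.84, 64.18, 74.75 and 71.41 in control mice and 60.19, 120.2, 116.8, 91.35 and 75.63 in ketogenic mice. Ketogenic mouse 1 was below 3 of the control mice, and the other 4 were above all of them.

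Pln, the inhibitor of the SERCA2a pump, had normalized read counts of 1463, 1641, 1603, 1647 and 1639 in control mice and 1715, 1878, 2193, 1811 and 1891 in ketogenic mice. The diets did not overlap, although the log2 difference was only 0.25 ± 0.06. Exons of other genes on the opposite strand cover up to 59.6% of the Pln exons, the kit does not record the strand, and how the reads of such pairs were divided was not tested. The pump itself, Atp2a2, differed by 0.13 ± 0.05.

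The calcium buffer Casq2 had a log2 difference slightly below 0. It had normalized read counts of 3630.0, 3476, 3250.0, 3393 and 3344 in control mice and 3258, 3237, 3426, 3168 and 3223 in ketogenic mice. The diets overlapped, and the log2 difference was -0.07 ± 0.04. Unscaled, Casq2 held 3140 to 3646 reads in control and 3096 to 3537 in ketogenic mice, so its direction depended on the scaling to library size. The sodium-calcium exchanger gene Slc8a1 differed by 0.29 ± 0.15, the L-type channel gene Cacna1c by 0.14 ± 0.13, the histidine-rich calcium binder Hrc by 0.10 ± 0.15 and Jph2, which holds the sarcoplasmic reticulum to the cell membrane, by -0.05 ± 0.12. In 7 of the 47 genes, Casq2 and Pln among them, the counts exceeded 0.5 reads per base of the gene, in a table where no gene of at least 200 bases held more than 2.10. A correction that assumes a ceiling of 2 reads per base, 1 for each start position and strand, moved the log2 difference of Pln to 0.32, of Actc1 to 0.48, of Mb to 0.47 and of Acta1 to 1.69, and Casq2 stayed at -0.07. Both the count of 7 and the correction rest on the length behind the RPKM. That length was 4456 bases for Casq2 against 2736 exon bases in GENCODE M21, and 18297 against 6485 for Tpm1. On the exon lengths their reads per base would be higher and their correction larger.

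The 4 energy and oxygen genes were all above 0. Fabp3, the heart fatty acid-binding protein, had normalized read counts of 114.5, 87.71, 102.5, 105.3 and 108.6 in control mice and 146.0, 153.7, 160.0, 163.3 and 144.9 in ketogenic mice. The diets did not overlap and the spread within each was small, with a log2 difference of 0.57 ± 0.10, a ratio of 1.48. About 29.2% of the 50-base windows of Fabp3 also occur in the pseudogene Fabp3-ps1, so part of its reads may be assigned uncertainly. Mb, the oxygen store, ran from 681.7 to 900.6 in control and from 901.8 to 1181 in ketogenic mice, with a log2 difference of 0.38 ± 0.09 and a gap between the diets of little more than 1 read. Exons on the opposite strand cover up to 27.6% of the Mb exons. Ckm, the cytosolic creatine kinase of muscle, differed by 0.41 ± 0.14, and the mitochondrial creatine kinase gene Ckmt2 by 0.10 ± 0.10.

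The natriuretic peptides went in different directions. Nppa, the mainly atrial peptide, had normalized read counts of 25.92, 7.627, 32.09, 24.21 and 15.09 in control mice and 4.933, 25.09, 14.73, 22.35 and 7.289 in ketogenic mice, and Nppb, which lies beside it on chromosome 4, had 20.52, 2.860, 23.81, 12.63 and 21.12 against 20.72, 12.55, 34.36, 38.87 and 20.05. Both overlapped between the diets, with log2 differences of -0.49 ± 0.46 and 0.65 ± 0.45. At these counts, 3 to 40 reads per mouse, a difference of this size was not resolved, and exons of Gm13054 on the opposite strand cover 61.5% of the Nppa exons.

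The 3 stretch response and turnover genes were all above 0, with a median log2 difference of 0.65. Ankrd1, a stretch-responsive protein of the titin N2A region and nucleus, had normalized read counts of 218.2, 168.8, 248.4, 240.0 and 265.5 in control mice and 339.4, 293.8, 542.9, 697.8 and 318.9 in ketogenic mice. The diets did not overlap, ketogenic mice 3 and 4 were highest as for Ttn and Xirp2, and the log2 difference was 0.94 ± 0.23. Smpx, a small muscle protein linked to stretch, ran from 76.68 to 98.96 in control and from 115.0 to 167.2 in ketogenic mice, a log2 difference of 0.65 ± 0.14. Trim63, the ubiquitin ligase MuRF1, overlapped between the diets at 0.54 ± 0.34.

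As a score per mouse, the mean of the z-scores of log2 CPM over the 45 tested genes was -0.55, -0.73, -0.20, -0.32 and -0.23 in control mice 1 to 5 and -0.15, 0.47, 1.01, 0.45 and 0.24 in ketogenic mice 1 to 5. Every ketogenic mouse lay above every control mouse, ketogenic mouse 1 by a small margin, and ketogenic mouse 3 was highest. That separation depended on the scale: as a plain mean of log2 CPM over the same genes, ketogenic mouse 1 stood at 4.70, below control mouse 3 at 4.78, the diets overlapped, and 4 of the 5 ketogenic mice lay above every control mouse. Group means were -0.41 ± 0.23 and 0.41 ± 0.42 (SD, n = 5). Of the group scores, that of the Z-disc and cytoskeleton genes was also free of overlap, and the other 7 overlapped. The score of the 3 tested atrial genes, Myl4, Myl7 and Nppa, ran the other way, with means of 0.29 ± 0.67 in control and -0.29 ± 0.85 in ketogenic mice, and overlapped. Without the 6 genes named above for their use outside striated muscle, the median log2 difference of the remaining 39 tested genes was 0.38, and that of the 6 was 0.13. The 6 are not a full list of such genes, and whether the 39 were confined to striated muscle was not tested.

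**Figure D4:**
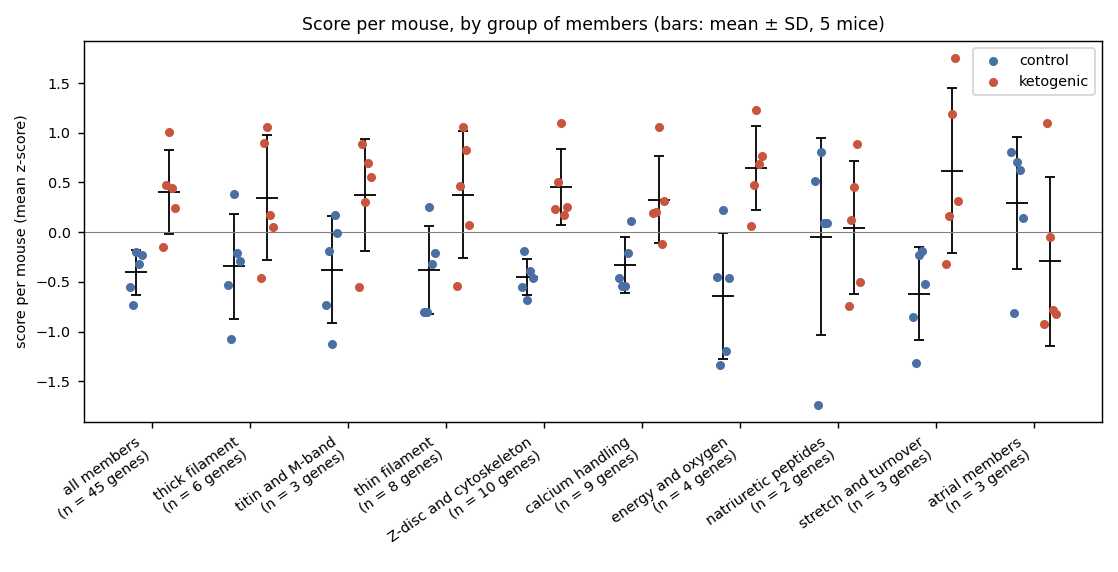
Score per mouse, the mean z-score of log2 CPM, for all tested genes, for each of the 8 groups and for the atrial genes, with 1 point per mouse (blue control, red ketogenic) and bars for the mean ± SD of 5 mice. The diets are apart for all genes and for the Z-disc and cytoskeleton, and the atrial genes lie lower in 4 of the 5 ketogenic mice than the highest control mouse.

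Differences between mice of the same diet were not used to choose the genes, and they show which of the genes move together. After the mean of each diet was subtracted, the correlation of each gene with the mean of the other 44 over the 10 mice ranged from -0.54 to 0.91. These values are a description over 10 libraries that share their normalization. Mybpc3 followed the others most closely (r = 0.91), then Tnnt2 (r = 0.89), Myoz2 (r = 0.88), Myl3 (r = 0.87), Tnni3 (r = 0.85) and Myl2 (r = 0.84). In all, 15 genes had an r of at least 0.7, mostly thick and thin filament genes, and all 15 had a log2 diet difference above 0, with a median of 0.38. The 14 genes with an r between 0.3 and 0.7 had a higher median log2 diet difference, 0.55, with 12 of 14 above 0, so the difference did not climb steadily with r. Taken by diet, r was above 0 in both diets for all 15 genes of the first class, lowest for Pln in control mice (0.19, against 0.88 in ketogenic mice). Among the 14, it differed in sign for Myom2 (-0.27 in control and 0.69 in ketogenic mice) and Atp2a2 (-0.44 and 0.81).

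A further set of 16 genes had an r of at most 0.3, and 8 of them an r below 0, namely Ldb3, Casq2, Myl4, Jph2, Des, Nebl, Myom1 and Xirp1. Taken by diet, r was below 0 in both diets for Jph2, Des, Nebl, Myom1 and Xirp1. It differed in sign for Ldb3 (-0.53 in control and 0.82 in ketogenic mice), Casq2 (-0.79 and 0.54) and Myl4 (0.05 and -0.26). The median log2 diet difference of the 16 was 0.04, and 9 were above 0. Acta1 belonged to this set (r = 0.29) although its diet difference was the largest. The median correlation over the 990 pairs of tested genes was 0.22, so the 45 genes did not vary as 1 block. Ttn and Ankrd1 correlated at r = 0.77 and Myh6 and Actn2 at r = 0.65.

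**Figure D5:**
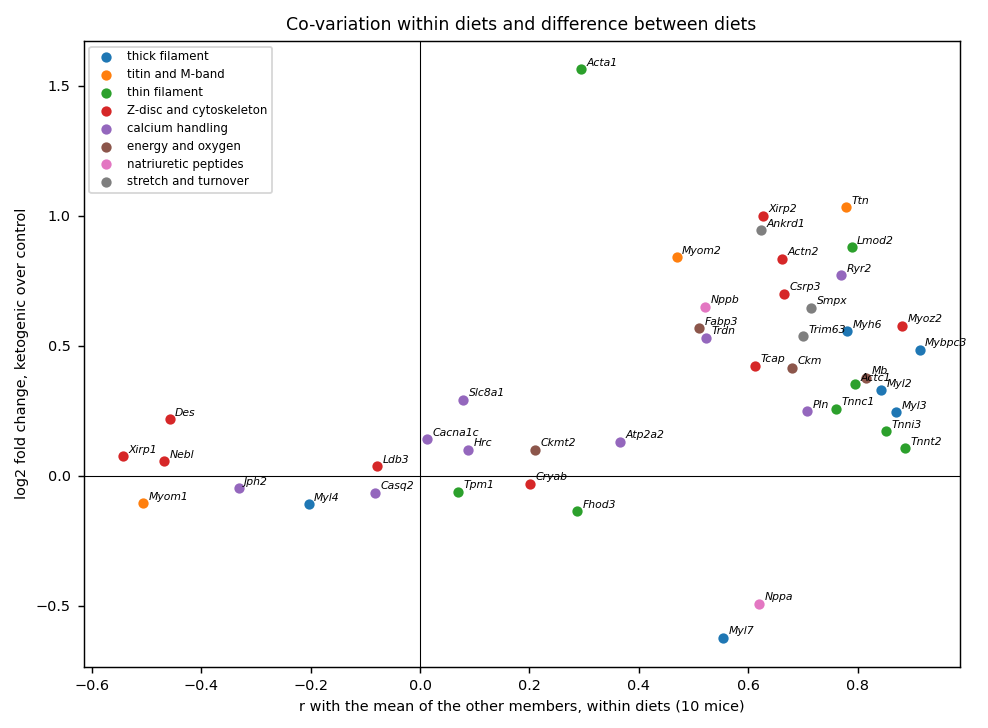
Correlation of each tested gene with the mean of the other tested genes within diets, over 10 mice (horizontal), against its log2 fold change, ketogenic over control (vertical), with 1 point per gene colored by group. The genes at the right with r of at least 0.7 all lie above 0, Acta1 stands apart at the top, and Myl7 and Nppa at the bottom.

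The atrial genes did not vary as 1 group. Within diets, Myl4 and Nppa were uncorrelated (r = 0.0039), and Nppa followed the mean of the other genes at r = 0.62. Myl7 correlated with Nppa at r = 0.81 and with Sln, sarcolipin, an atrial inhibitor of the calcium pump that is not among the 47 genes, at r = 0.89, whereas its correlation with Myl4 was 0.30 and with Myh6 0.56. Sln had normalized read counts of 85.32, 12.39, 62.11, 100 and 39.23 in control mice and 19.73, 88.87, 28.47, 25.27 and 4.556 in ketogenic mice. As for Myl7, control mouse 2 was low and ketogenic mouse 2 high, against the rest of their diets. The log2 difference of Sln was -0.85 ± 0.63 (edgeR adjusted p = 0.51), and of Dkk3, another atrial gene, -0.40 ± 0.12 (edgeR adjusted p = 0.11). Kcnj3, with 1 to 11 reads per mouse, and Bmp10, with 0 to 2, complete the atrial list and were not tested. Their mean normalized read counts were 6.559 in control and 7.005 in ketogenic mice for Kcnj3, and 0.2106 and 0.3947 for Bmp10.

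Outside all the gene lists, the genes whose within-diet pattern was most like the score of the 45 genes were Nsg1 (r = 0.96), Mdfic (r = 0.94) and Slit3 (r = 0.94), each over 10 mice and each the top of an order over all tested genes. Their log2 diet differences were 0.12, 0.31 and 0.11, and none passed an adjusted p of 0.05 with edgeR. Further down the same order, Aldh3a1 (r = 0.94), Gm5580 (r = 0.93) and Gin1 (r = 0.93) lay below 0, at -0.45, -0.03 and -0.08. Klra9, 9230114K14Rik, Nipsnap2 and Cdkn2c lay above 0, from 0.10 to 0.38. The highest r of the 45 genes with the mean of the others was 0.91, so r values of this size were also found outside them. Those outside are the top of an order over all tested genes. The share of all tested genes with such an r is not given, so the 45 cannot be ranked against the rest by r.

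Other genes of the cardiomyocyte, 82 in all and none of them among the 47, were examined with the same fit, and 75 were tested. Their reads were not traced to a cell type, so their values cannot be read as cardiomyocyte RNA alone. The log2 difference was above 0 for 53 and below 0 for 22, with a median of 0.09. With edgeR's adjusted p, 3 of 75 were higher on the ketogenic diet and none lower. Of all tested genes, 1.34% were called and 48.6% had a difference above 0. These lists too were written with earlier results of these data known, so nothing is read from that count or from the adjusted p-values below. Hspb6, a small heat shock protein of muscle, had normalized read counts of 697.9 to 804.6 in control and 939.3 to 1220.0 in ketogenic mice, and rose by a log2 difference of 0.54 ± 0.07 (edgeR adjusted p = 0.0045, higher in 5 of 5 mice). Pgam2, the muscle phosphoglycerate mutase, rose by 0.49 ± 0.10 and Acot2, a mitochondrial thioesterase, by 0.27 ± 0.05 (edgeR adjusted p = 0.037 for both).

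By list, the median log2 difference was 0.41 for 23 other sarcomere genes, 0.03 for 23 other excitation and calcium genes, 0.09 for 19 muscle energy isoforms and 0.05 for 9 cardiac transcription factors. The number above 0 was 17 of 23, 16 of 23, 13 of 19 and 7 of 9 in the same order. Nkx2-5, the cardiac homeobox factor, had 0 to 3 reads per mouse and was not tested. The lowest log2 differences in these lists, chosen after their values were seen, were those of Tbx5, a cardiac T-box factor, and Ampd1, the muscle AMP deaminase. Tbx5 had normalized read counts of 132.8, 52.44, 110.8, 145.3 and 82.47 in control mice and 24.67, 63.77, 34.36, 62.20 and 40.09 in ketogenic mice, a log2 difference of -1.22 ± 0.31 (edgeR adjusted p = 0.076). Ampd1 ran from 12.07 to 24.79 in control and from 3.927 to 10.93 in ketogenic mice, without overlap, a log2 difference of -1.19 ± 0.33 (edgeR adjusted p = 0.096). The count of 3 fell to 1 without control mouse 1, 2 or 5 or ketogenic mouse 3, 4 or 5.

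Marker genes of the other cells in such a preparation were summed per mouse and compared by an exact permutation test, two-sided, whose smallest possible p is 0.0079, with Benjamini-Hochberg adjustment over 12 lists. Smooth muscle genes summed to 1655 ± 53.8 CPM in control and 1639 ± 75.4 CPM in ketogenic mice (exact p = 0.67), and pericyte genes to 1493 ± 31.6 and 1470 ± 85.4 CPM (exact p = 0.60). Fibroblast genes stood at 734 ± 32.0 and 759 ± 73.9 CPM (exact p = 0.51). Counts of the most abundant genes of these lists were near the ceiling of reads per base, with Acta2 at up to 1.62, Rgs5 at up to 1.65 and 4 of 6 smooth muscle genes over 0.5, so these p-values do not show that the cell shares were the same. Lymphocyte, platelet and macrophage genes had lower means on the ketogenic diet. The lymphocyte list ran from 201 to 293 CPM in control and from 154 to 199 CPM in ketogenic mice (exact p = 0.0079, adjusted p = 0.095, lower in 5 of 5 mice), and the platelet list from 402 to 644 and from 188 to 480 CPM (exact p = 0.032, adjusted p = 0.19). The macrophage list ran from 219 to 775 and from 201 to 391 CPM (exact p = 0.30).

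The remaining lists, endocardial, lymphatic, erythroid, Schwann and mesothelial, had adjusted p-values between 0.29 and 0.65 (exact permutation), and no marker of any list was at 0 in every mouse. In the erythroid list, Hba-a1 held 97 to 98 reads in every mouse at no more than 0.0822 reads per base. Counts could thus be nearly constant at far fewer reads per base of the whole gene than the ceiling over all genes. Whether only part of such a gene could be counted was not tested. These p-values do not show that the cell shares were the same. A list of cardiomyocyte markers cannot serve as an independent measure here, since its defining genes are the 47 genes themselves. The part of these other cells in the values above was not tested.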

How the data were processed

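RNA of CD31 bead-selected cardiac cells from 10 mice was made into libraries by the authors with a SMART-Seq v4 kit, which does not record strand, and read as single 50-base reads. The deposited counts are raw read counts per gene, and the deposited RPKM values are the authors' counts per kilobase of gene, relative to all counted reads. The submitters' processing notes name bcl2fastq 2.17.1.14, STAR 2.3, HTSeq 0.6.0 and mm10. The annotation release, the strand setting and any removal of duplicates are not given in the sources used here. Ensembl identifiers were matched to GENCODE M21, 37902 of 46983 with the same version and 46488 with any.

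Counts were tested with edgeR 4.0.16 (R 4.3.3; TMM, filterByExpr, quasi-likelihood F-test, Benjamini-Hochberg over 15949 genes). Normalized read counts are counts scaled to the mean effective library size. Log2 CPM values carry a prior count of 2. The edgeR p-values are for the difference between the diets. They set it against the spread between the 5 mice of each diet, estimated with information shared across genes. Alternatives used DESeq2 1.42.0 and limma 3.58.1 on log2 RPKM, and the scripts were tested on simulated data. The genes and lists were chosen with earlier results of these data known. Outside the 47 genes, named genes were those called in each list, the atrial list, markers and the genes most like the score, and Nkx2-5, Tbx5 and Ampd1 were chosen after their values were seen. Sequences are from RefSeq, GRCm38.p6. Labels gave groups and mouse numbers. The numbers were not treated as pairs in the main fit.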

Additional observations from a re-analysis of the deposited data

Results flagged for a closer look

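Of 98 groups of 5 values examined, 8 held 1 mouse apart from the other 4 by Dixon's ratio above 0.71, where chance alone gives about 4.9 (1 in 20). On the ketogenic diet, Acta1 had 945.6 normalized reads in mouse 4 against 384.7 to 476.2 in the others, Mybphl had 17.77 in mouse 2 against 0 to 2.733, and Slc8a1 had 140.3 in mouse 5 against 107.7 to 116.4. On the control diet, mouse 1 was lowest for Fhod3 with 11.88 against 42.90 to 49.28, for Pln with 1463 against 1603 to 1647 and for Trdn with 45.36 against 66.32 to 70.40. Actn2 had 483.4 in control mouse 3 against 222.1 to 281.9, and Hrc had 266.5 in control mouse 5 against 170.5 to 195.6. The log2 difference of Acta1 stayed between 1.25 and 1.75 when any 1 mouse was left out.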

How the results depend on the processing

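Over 20 alternatives, the median log2 difference of the tested genes stayed between 0.24 and 0.35, 34 to 37 of them were above 0, and 4 genes near 0 (Jph2, Ldb3, Myl4, Xirp1) changed sign in some. The calls were less stable. The 213 genes called over all tested genes became 815 with DESeq2, 113 with the replicate block and 86 to 492 when 1 mouse was left out. The 3 calls among the 47 genes became 8 with no filter, 5 with at least 10 counts in every mouse and 16 with DESeq2. They became 5 with the start position correction (chosen after seeing the data) and 1 to 8 when 1 mouse was left out. The share of all tested genes called was 0.68% with no filter, 1.74% with at least 10 counts and 5.11% with DESeq2. The replicate block gave 4 calls, Myh6, Ttn, Csrp3 and Myoz2. No pairing by mouse number was seen. The correlation of same-numbered deviations lay between -0.13 and 0.09, and 0 of 5 control mice matched their own number best. With 5 mice per diet this cannot exclude a pairing, and the paper describes the control mice as littermates. The 3 calls among other cardiomyocyte genes became 16 with DESeq2, 5 with limma at either added value (1 or 0.1 RPKM) and 1 to 3 when 1 mouse was left out. The score difference of 0.81 was 0.34 as a mean of log2 CPM, a different unit in which the diets overlapped (4 of 5 ketogenic mice above every control). The causes were not tested. Genes with at most 40 reads per mouse, such as Nppa, Nppb and Mybphl, are limited by depth.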
